A study of Mus musculus with 8 samples.

Results

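The genes described are the nuclear genes for subunits of the mitochondrial respiratory chain and ATP synthase, chosen by symbol alone: Nduf genes of the a, b, c, s and v series (complex I), Sdha to Sdhd (complex II), Uqcr genes (complex III), Cox4 to Cox8 genes (complex IV) and Atp5 genes (complex V). The rule found 85 of the 23284 entries of the authors' deposited table. Of these, 82 encode structural subunits or their isoforms. Atp5s, Atp5sl and Cox4nb matched by name only, and are counted among the subunit genes below except where genes are given by complex. The subunit genes Cyc1, Ndufab1 and Usmg5 have other symbols and were not taken.

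RNA sequencing was made on 2 mouse embryonic stem (ES) cell lines of mixed strain, each a single clone. Clone 6 carries a doxycycline-inducible transgene for Ctcfl, a germ cell relative of the insulator protein Ctcf, and is called the transgenic line here; clone 7 has no transgene. The 4 groups were the transgenic line with doxycycline, the transgenic line without it, the non-transgenic line with doxycycline and the non-transgenic line without it. Cells of all groups had been kept on embryonic fibroblast feeders and were then plated without them for 48 h, with doxycycline at 2 µg/ml where it was given. Each group had 2 libraries, labelled biological replicates from repeated experiments, so the line comparisons are between 1 clone and 1 clone and cannot tell the transgene apart from other differences between the clones.

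Oxidative phosphorylation passes electrons from NADH (complex I) and succinate (complex II) through ubiquinone, complex III and cytochrome c to oxygen at complex IV, and ATP synthase (complex V) uses the proton gradient this builds. Most subunits are encoded in the nucleus and a few catalytic ones in mitochondrial DNA. Mouse ES cells of the naive type respire actively while also relying on glycolysis, and several complex IV subunits have a ubiquitous form and a second form restricted to muscle, testis or lung.

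Expression was deposited as FPKM, in which fragments are scaled by transcript length and by the mapped total, with 1 value per gene and group that combines the 2 libraries. Values therefore carry no SD, library depth is unknown, and levels of different genes are compared per length. In lists of 4 values the order is always transgenic with doxycycline, transgenic without, non-transgenic with and non-transgenic without. Ctcfl itself was listed at 0.995, 0.403, 0.498 and 0.513 FPKM, highest in the induced group, and its difference with doxycycline in the transgenic line had p = 0.0062 and q = 0.296 in the authors' deposited table. All 5 ES cell markers were above 1 FPKM in each group, and Pou5f1 ranged from 1011 to 1116 FPKM; of the 5, 2 were called higher and 1 lower in the transgenic line in each line comparison of the authors' deposited table. The 7 fibroblast markers summed to 486, 475, 392 and 394 FPKM, higher in the transgenic line, but not all went that way. Of the 6 at 1 FPKM or more, 5 stood higher there without and 4 with doxycycline. Col1a1 (140, 132, 86.8 and 92.8 FPKM) and Vim (268, 260, 228 and 227 FPKM) had the widest gaps in FPKM. Thy1 was lower in the transgenic line both times (25.3, 25.7, 26.9 and 25.9 FPKM), and Col3a1 with doxycycline (5.72 against 6.44 FPKM). Lum was below 1 FPKM in every group, and 0 of the 6 tested were called in any comparison (1 had p under 0.05 in each line comparison). The part of carried-over feeder RNA in the line differences given for the subunit genes was not tested. In bulk RNA, a change in a cell type's share and a change in RNA per cell cannot be told apart.

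The subunit genes were expressed at high and even levels in all 4 groups, and none was called changed by doxycycline or between the lines. They summed to 18361, 18031, 17411 and 17487 FPKM, or 2.52%, 2.45%, 2.41% and 2.44% of all FPKM. The sum was highest in the transgenic line with doxycycline and lowest in the non-transgenic line with doxycycline. In each group 55 of the 85 reached 100 FPKM. The median gene of the set stood at 154, 156, 155 and 166 FPKM, against 11.4, 11.2, 11.4 and 11.3 FPKM over all genes that reached 1 FPKM. In the mean of the 4 groups 81 of the 85 reached 1 FPKM, and the 4 that did not (Cox6a2, Cox7b2, Cox8b and Cox8c) are tissue-restricted isoforms of complex IV.

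**Figure D1:**
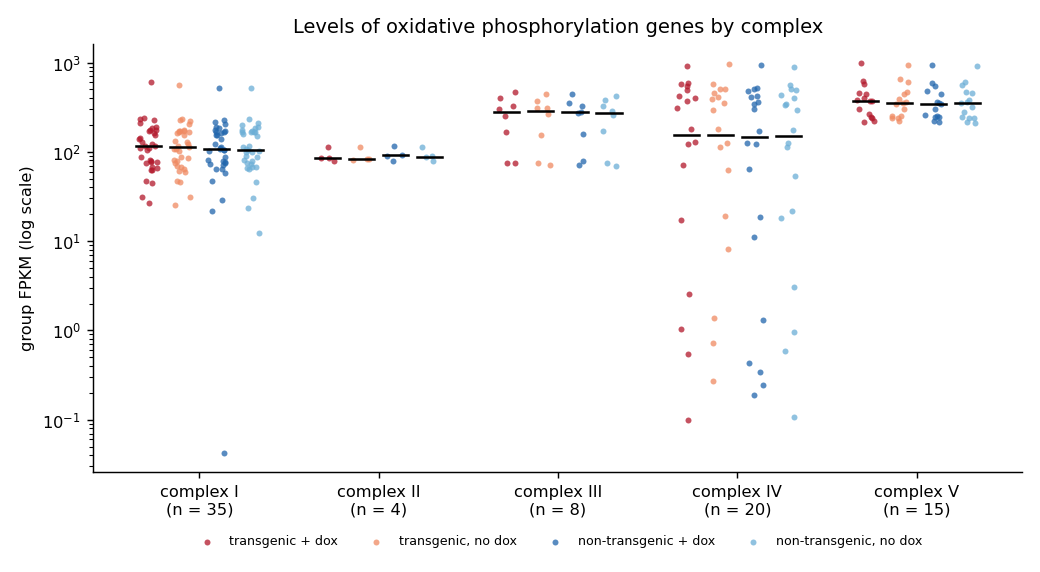
Group FPKM (log scale) of the genes of each complex, 1 point per gene and group, with the median of each group as a black line; values listed at 0 are not drawn. The 4 groups overlap in each complex, complex V has no gene below 200 FPKM in its mean, and the low points of complex IV are isoform genes; the isolated low point of complex I is Ndufs5 in the non-transgenic line with doxycycline, at 0.0427 FPKM.

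Complex I, the NADH dehydrogenase, had 35 genes that summed to 4699, 4590, 4421 and 4476 FPKM. Its 7 core subunits, which hold the flavin and the iron-sulphur clusters or build the electron path, were lower than many accessory ones: their mean levels ran from 46.7 FPKM (Ndufs1) to 141 FPKM (Ndufs7) with a median of 79.5. The 28 accessory genes ran from 24.4 FPKM (Ndufa11) to 551 FPKM (Ndufa7) with a median of 120. Ndufs1, which carries iron-sulphur clusters of the NADH-oxidising arm, was at 46.6, 46.9, 47.7 and 45.6 FPKM. Ndufv1, which binds NADH and the flavin, was at 87.4, 87.7, 88.0 and 87.0 FPKM, the narrowest range of these 7. Ndufv2, its partner, was at 62.8, 61.5, 63.6 and 66.1 FPKM.

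Among the other core genes Ndufs3 was at 78.4, 78.1, 79.6 and 81.9 FPKM. Ndufs7, which holds the last cluster before ubiquinone, was at 141, 134, 139 and 151 FPKM. The deposited position of Ndufs7 is a merged region that holds many other entries. Ndufs8, another cluster-bearing subunit, was the most variable of the core, at 76.4, 74.1, 58.5 and 68.4 FPKM. Of the accessory genes Ndufa7 led at 603, 562, 520 and 519 FPKM, followed at a distance by Ndufb8 at 238, 230, 226 and 233 FPKM.

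Complex II, succinate dehydrogenase, which also serves the citric acid cycle, had 4 genes at similar levels. Sdha, the flavoprotein, was at 86.3, 82.5, 79.6 and 78.0 FPKM. Sdhb, the iron-sulphur subunit, was at 112, 112, 116 and 113 FPKM. The membrane anchors Sdhc (78.9, 81.8, 90.0 and 87.2 FPKM) and Sdhd (84.8, 83.8, 92.6 and 89.8 FPKM) were both lower in the transgenic line than in the other, by at most 0.19 on the log2 scale.

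Complex III, the cytochrome bc1 complex, had 8 genes that summed to 2058, 1995, 1982 and 1990 FPKM. Uqcrfs1, the Rieske iron-sulphur protein, was at 74.7, 75.1, 79.3 and 75.1 FPKM. The small subunits Uqcrq (464, 441, 441 and 426 FPKM) and Uqcr11 (400, 370, 350 and 382 FPKM) were the highest. Uqcrc2, one of the large matrix-facing subunits, was lowest in the mean at 71.7 FPKM.

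Complex V, ATP synthase, had 15 genes, and its lowest, Atp5f1 of the peripheral stalk, had a mean of 217 FPKM. The catalytic beta subunit Atp5b had the highest mean of the whole set, at 976, 950, 928 and 924 FPKM. Cox7c of complex IV was above it in the transgenic line without doxycycline (969 FPKM) and the non-transgenic line with it (932 FPKM). The partner of Atp5b in the catalytic hexamer, Atp5a1, was at 439, 447, 478 and 462 FPKM. Over all complexes the 15 core genes had a median of 113 FPKM and the 58 accessory genes a median of 192 FPKM, a description with no test. The order differed by complex. Core medians were above accessory ones in complex V (457 against 310 FPKM) and complex II (97.5 against 86.1 FPKM). They were below them in complex I (79.5 against 120 FPKM) and complex III (76.0 against 294 FPKM). Complex IV gave accessory genes (median 411 FPKM) but no core gene to the pooled medians. Accessory genes are mostly short, and over the 81 genes the Spearman correlation between transcript length in GENCODE (median 659 bases) and mean FPKM was -0.31. FPKM of short transcripts depends on how fragment length was modelled; that setting was not given in the sources used here.

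Complex IV, cytochrome c oxidase, had 20 nuclear genes, of which the ubiquitous ones were high and most tissue-restricted ones near 0. Cox7c was the highest, at 910, 969, 932 and 901 FPKM. Cox4i1 was at 596, 573, 524 and 559 FPKM, and its lung and hypoxia isoform Cox4i2 at 1.03, 1.39, 1.32 and 3.07 FPKM. Cox6a1 was at 571, 506, 503 and 506 FPKM, whereas its muscle isoform Cox6a2 was listed at 0 in both transgenic groups and at 0.189 and 0.106 FPKM in the others. Cox8a, the ubiquitous form, was at 548, 501, 474 and 486 FPKM. Its muscle isoform Cox8b was listed at 0 in 3 groups and at 0.345 FPKM in the non-transgenic line with doxycycline, and its testis isoform Cox8c was between 0.0989 and 0.592 FPKM. Cox7b was at 127, 125, 124 and 125 FPKM, and its testis isoform Cox7b2 between 0.430 and 0.970 FPKM.

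Some restricted isoforms were nevertheless present at sizeable levels. Cox6b2, the testis form of the Cox6b subunit, was at 70.3, 63.2, 64.9 and 53.5 FPKM, beside 369, 354, 346 and 335 FPKM for the ubiquitous Cox6b1. It thus made up 16.0%, 15.1%, 15.8% and 13.8% of the family's FPKM. The muscle form Cox7a1 was at 17.3, 19.1, 18.8 and 17.9 FPKM, between 5.45% and 6.08% of a family with Cox7a2 (180, 182, 171 and 174 FPKM) and the supercomplex factor Cox7a2l (121, 113, 123 and 113 FPKM). No 75-base stretch of the Cox6b2 transcripts, the length of a read, occurs in another GENCODE gene.

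ATP synthase has 3 genes for the same mature c subunit of its membrane ring, which differ in their targeting peptides. Atp5g2 was at 614, 604, 597 and 597 FPKM, Atp5g3 at 453, 470, 441 and 457 FPKM, and Atp5g1 at 220, 240, 248 and 239 FPKM. The order was the same in every group, and Atp5g1 made up between 17.1% and 19.3% of the total. Of the Atp5g2 stretches of 75 bases, 35.8% also occur in other annotated genes, so part of its level could be split with those copies.

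**Figure D2:**
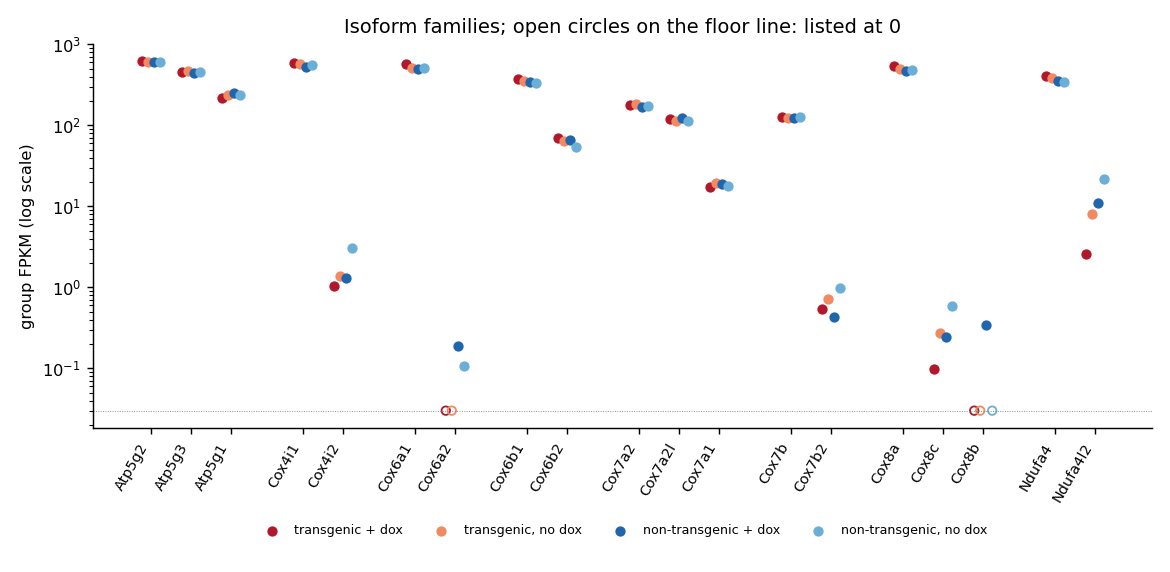
Group FPKM (log scale) of the isoform families, with 4 points per gene for the 4 groups; open circles on the dotted line are values listed at 0. The ubiquitous forms sit above 100 FPKM, Cox6b2 near 60 and Cox7a1 near 18, while Cox6a2, Cox7b2, Cox8b and Cox8c stay below 1 FPKM; Ndufa4l2 spreads from 2.55 to 21.5 FPKM.

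Ndufa4 was first assigned to complex I and later found in complex IV; its paralog Ndufa4l2 is induced by hypoxia. Ndufa4 was at 403, 387, 357 and 341 FPKM. Ndufa4l2 was at 2.55, 8.06, 11.1 and 21.5 FPKM, lowest with the transgene and doxycycline and highest with neither, and its share of the pair ran from 0.628% to 5.93%. On the log2(FPKM + 1) scale Ndufa4l2 differed by -1.35 with doxycycline in the transgenic line and by -0.89 in the non-transgenic line. Between the lines it differed by -1.31 without and -1.77 with doxycycline, transgenic minus non-transgenic. None of these was called: p was 0.304, 0.349, 0.136 and 0.252 in the authors' deposited table, so none of these differences passed its test. The deposited position of Ndufa4l2 also holds Shmt2, a mitochondrial enzyme of folate metabolism. No 75-base stretch of the Ndufa4l2 transcript occurs in another GENCODE gene. How the authors' quantification divided reads between these entries was not tested. Cox4i2, the other hypoxia-linked isoform, was also highest in the non-transgenic line without doxycycline, and its smallest p of 0.07795 was for the lines without doxycycline (log2 difference -0.77).

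Doxycycline in the transgenic line was the comparison designed to ask what induced Ctcfl changes. Ctcfl itself stood at 0.995 FPKM with and 0.403 FPKM without doxycycline there and was not called (q = 0.296 in the authors' deposited table), which limits what the comparison can say about Ctcfl. Of 81 subunit genes tested 0 were called at q under 0.05 by the pairwise test, of the Cuffdiff kind, in the authors' deposited table, and 0 had an unadjusted p under 0.05. Over all genes 14 of 13003 were called (0.108%), so a count of 0 among 81 is near the background. The smallest p of a subunit gene was 0.304 (Ndufa4l2), and the smallest q was 0.9996. The median difference was 0.03 on the log2(FPKM + 1) scale, with 52 of the 81 genes above 0, beside a median of 0.00051 and 50.2% above 0 over 12156 genes at 1 FPKM or more. On the log2 scale the sums differed by 0.05 in complexes III and IV, by 0.03 in complex I, by 0.01 in complex II and by -0.003 in complex V, which became 0.01 with FPKM rescaled to the same total in each group.

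The largest single differences in that comparison were small apart from Ndufa4l2. Atp5k, a membrane subunit of ATP synthase that supports its dimers, was at 574 FPKM with and 657 FPKM without doxycycline (log2 difference -0.19, p = 0.370 in the authors' deposited table). Cox4i2 differed by -0.24. On the upper side stood Atp5s, a name match at about 2 FPKM (0.25), and the complex I subunits Ndufs6 (231 against 203 FPKM, 0.18) and Ndufa8 (75.9 against 67.0 FPKM, 0.18).

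The same agent in the non-transgenic line served as the control for doxycycline itself. Here 0 of 82 subunit genes and 0 of 12908 genes in all were called (0%), and 0 subunit genes and 14 genes in all had p under 0.05 in the authors' deposited table. The smallest p of a subunit gene was 0.107 (Cox4i2). The median difference was 0.01 with 44 of 81 genes above 0, beside 0.02 and 57.8% over all genes. The lowest differences were those of Ndufs5 (-3.69), Ndufa4l2 (-0.89) and Cox4i2 (-0.81), and the highest those of Cox6b2 (0.28), Atp5s (0.25) and Ndufb4 (0.15, 186 against 168 FPKM).

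The lines themselves differed at more genes than the doxycycline comparisons did. Without doxycycline 0 of 82 subunit genes were called, with 179 of 13047 genes called in all (1.37%); with doxycycline 0 of 81 were called, with 199 of 13064 in all (1.52%). Against these shares a count of 0 in a set of this size is near the background. At p under 0.05 there were 0 subunit genes in either comparison, beside 6.59% and 7.90% of all genes tested in the authors' deposited table. The median difference, transgenic minus non-transgenic, was 0.03 without doxycycline (all genes -0.001) and 0.05 with it (all genes -0.02), with 52 of 81 genes above 0 each time. With FPKM rescaled to the same total in each group the median without doxycycline became -0.01 (all genes -0.04) and that with it 0.03 (all genes -0.03). The direction of the former therefore depends on the scaling, while both medians stayed above those of all genes. The 2 comparisons share no library.

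By complex, the ATP synthase genes stood higher in the transgenic line at 13 of 15 genes without and 12 of 15 with doxycycline, and their sums differed by 0.06 and 0.07 on the log2 scale. Complex II stood lower at 3 of its 4 genes both times, with differences of the sums of -0.03 and -0.06. Complex IV sums differed by 0.06 and 0.10, complex I sums by 0.04 and 0.09, and complex III sums by 0.003 and 0.05. With the rescaled FPKM the ATP synthase counts became 9 and 11 of 15, the sums of complexes I and III without doxycycline changed sign to -0.003 and -0.04, and the other directions between the lines were as before. These are descriptions of group values with no test, and all are below a 1.2-fold change.

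Among single genes higher in the transgenic line, Ndufa3 (227 against 184 FPKM, 0.30) and Ndufc2 (127 against 106 FPKM, 0.27) came next after Ndufs5 without doxycycline. Both are accessory subunits of complex I. With doxycycline Ndufs8 (76.4 against 58.5 FPKM, 0.38, p = 0.128) and Atp5e (374 against 298 FPKM, 0.33, p = 0.159 in the authors' deposited table) came next. Atp5e is the epsilon subunit of the central stalk. Atp5s was lower by 0.38 in the transgenic line in both comparisons.

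**Figure D3:**
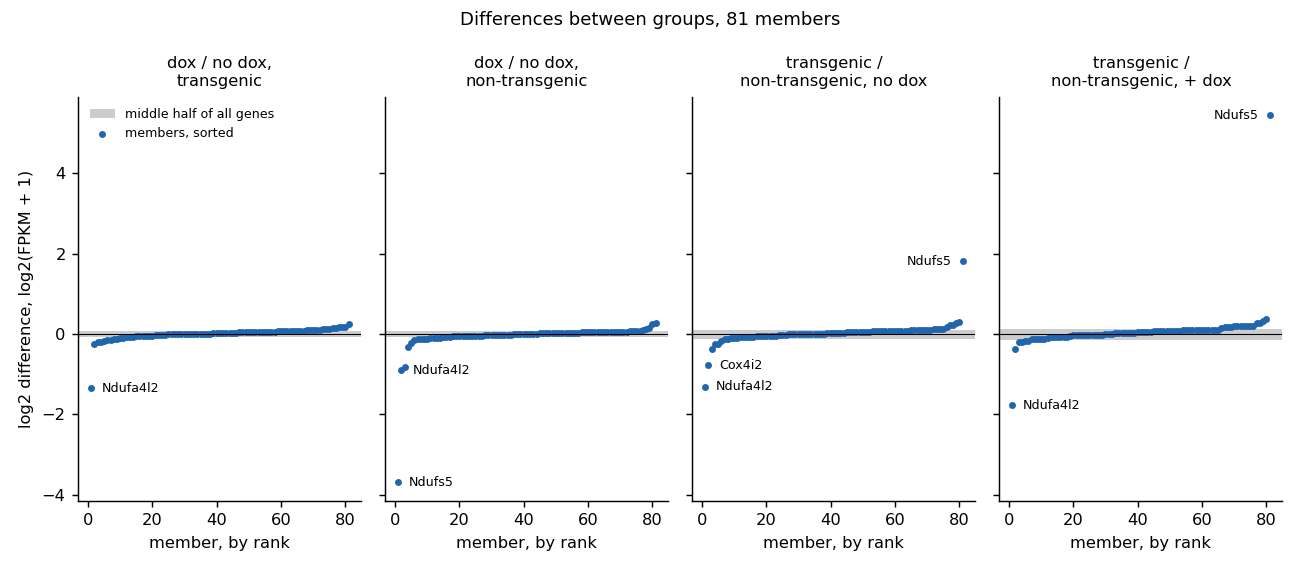
Differences on the log2(FPKM + 1) scale of the 81 genes at 1 FPKM or more in the 4 comparisons, sorted within each panel; the grey band spans the lower to the upper quartile of all 12156 genes at that level. Nearly all points lie near 0, and the points far from it are Ndufs5 in 3 panels, Ndufa4l2 in all 4 and Cox4i2.

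Whether a gene responded to doxycycline differently in the 2 lines was tested with a two-sided normal test, using standard errors taken from the deposited statistic. Of 81 subunit genes 0 were called and 0 had p under 0.05, with 18 of 12634 genes called in all (0.142%). With standard errors taken from the deposited p-value 0 of the 12634 genes were called. Uqcr11 of complex III had the smallest p of the set, with log2 ratios of 0.11 in clone 6 and -0.13 in clone 7 and a difference of 0.24 (SE 0.15).

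A p that misses the threshold does not show that a gene is equal between groups, and the deposited errors set how far these values reach. The median standard error of a subunit gene's log2 ratio, taken from the deposited statistic, was 0.20, 0.22, 0.20 and 0.22 in the 4 comparisons in the order given above. A 95% interval built on it stayed within a 1.5-fold change in either direction for 61 of 81, 55 of 82, 58 of 82 and 48 of 81 genes. For the other genes the interval was wider. The deposited statistic and p-value do not match on the normal scale that this interval assumes. For the lines without doxycycline Atp5k had a statistic of 2.74 but p = 0.309 in the authors' deposited table. With standard errors taken from the deposited p-value the counts were 64, 62, 63 and 55, so they depend on this choice.

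The subunit genes varied little over the 4 groups. The ratio of the highest to the lowest group FPKM had a median of 1.10 over the 81 genes, and was under 1.2 for 70 of them (86.4%). Over all 12048 genes at 1 FPKM or more in the mean and above 0 in each group, the median was 1.19 and 53.1% were under 1.2. Level matters for this ratio: among genes at 50 FPKM or more, 65 of 71 subunit genes (91.5%) and 74.9% of all 1953 genes were under 1.2. Only Ndufs5, Ndufa4l2, Cox4i2 and Atp5s reached 1.5, and their means were 25.9, 10.8, 1.70 and 2.18 FPKM.

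Across genes, the doxycycline responses of the lines, which share no library, had a Pearson r of 0.28 and a Spearman rho of 0.12 over the 81 genes. The line differences with and without doxycycline, which share none either, had r = 0.87 and rho = 0.63. Without Ndufs5, Ndufa4l2 and Cox4i2, over 78 genes, r and rho were 0.24 and 0.02 for the responses and 0.60 and 0.59 for the line differences. Over all 12156 genes they were -0.04 and 0.13 for the responses and 0.19 and 0.66 for the line differences. Genes are not independent replicates, so these values only describe the table.

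Ndufs5, an accessory subunit of complex I, was the widest exception to the even levels. It was at 44.8, 46.5, 0.0427 and 12.5 FPKM: both transgenic groups lay above both non-transgenic ones. The log2 differences were -0.05 and -3.69 with doxycycline in the transgenic and non-transgenic line, and 1.82 and 5.46 between the lines without and with doxycycline. The authors' deposited table nevertheless gave p = 0.961, 0.263, 0.340 and 0.0938. A second entry, BC002163, is listed there at the very same position as Ndufs5 (chr4:123712710-123718186, mm10). It was at 43.4, 42.8, 71.8 and 71.6 FPKM, high where Ndufs5 was low, with p = 0.01485 and 0.0218 for the lines without and with doxycycline (q = 0.501 and 0.630 in the authors' deposited table).

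GENCODE places BC002163, a processed pseudogene, at chr16:42955631-42955949, and its 319 bases match the Ndufs5 transcript from the start codon on with 2 differing bases. The stretch that holds both is shown for each, because by sequence alone a read belongs to Ndufs5 or to the copy only where it covers a differing base or reaches past an end of the copy; the capitals mark the differing bases, T81C and A105G, counted from 1 at the A of the start codon, with the Ndufs5 base first. The Ndufs5 stretch is chr4:123715957-123716017 on the minus strand, in a coding exon, and the BC002163 stretch is chr16:42955693-42955753 on the plus strand (GRCm38).
Ndufs5: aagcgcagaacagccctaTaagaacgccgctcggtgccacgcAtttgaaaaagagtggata
BC002163: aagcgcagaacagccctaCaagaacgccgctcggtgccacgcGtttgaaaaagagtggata

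The 2 entries together had 88.2, 89.3, 71.8 and 84.1 FPKM. For this sum the log2 differences were -0.02 and -0.22 with doxycycline in the transgenic and non-transgenic line, and 0.09 and 0.29 between the lines without and with doxycycline. Of the 75-base stretches of the Ndufs5 coding transcripts in GENCODE, 15.7% also occur in BC002163, and the rest occur in no other annotated gene. How the authors' quantification divided reads between the entries was not tested, so the level of Ndufs5 alone is uncertain.

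**Figure D4:**
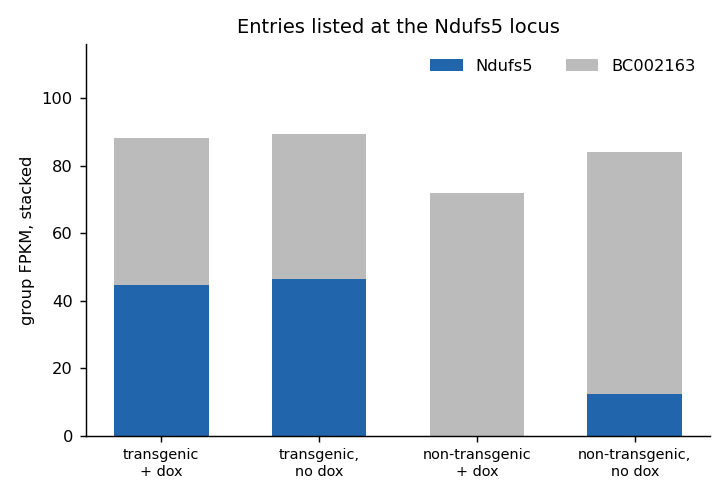
Group FPKM of Ndufs5 (blue) and BC002163 (grey), the entries listed at the same position, stacked for the 4 groups. Ndufs5 goes from 46.5 FPKM to 0.0427 FPKM, while the height of the stack lies between 71.8 and 89.3 FPKM.

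Other copies bear on the levels too. Of the 81 genes, 37 share at least one 75-base stretch with another GENCODE gene, 10 share 25% or more of their stretches, and 1, Atp5l of the ATP synthase membrane part, shares 76.0%, with 10 other genes. Ndufb4, Ndufs3, Uqcrb, Atp5g2, Atp5h and Atp5f1 are among the 10, and for each of these the gene that shares most is annotated as a processed pseudogene, a transcribed one in the case of Atp5g2. Strand use in counting was not given in the sources used here. Overlapping antisense genes therefore cannot be told apart either.

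The start sites of the set hold letters that many respiratory genes are known for. NRF1 and GABP are transcription factors known to act on nuclear respiratory genes, and YY1, a zinc-finger factor, is also linked to these genes. RefSeq promoter windows (250 bases before to 50 after the start, GRCm38.p6) were found for 69 of the 85 genes and were searched on both strands. The NRF1 motif (GCGCA and GCGC with any base between) stood in 17 of 69 (24.6%), in 11.7% of 8569 genes at 1 FPKM or more and in 5.19% of all 27025 genes with a window. The YY1 motif AAGATGGCG stood in 8 (11.6%), in 3.69% of the expressed genes and in 1.64% of all. The GABP motif CCGGAAG stood in 16 (23.2%), close to the 20.5% of expressed genes, and in 9.93% of all.

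At least one of the 3 motifs was in 35 of the 69 windows (50.7%), against 32.1% of expressed genes and 15.1% of all. More than 1 was found in Atp5h, Atp5j, Atp5k, Cox6a1, Ndufs6 and Sdhd. The letters AGGGGGCGC are 1 form of the core of the Ctcf motif, which Ctcfl shares through its zinc fingers. They were in 1 window, that of Ndufc1 (1.45%, against 2.88% of expressed genes). Other forms of this core were not searched for. Ndufc1, a small complex I subunit, was at 154, 153, 155 and 159 FPKM. The TATA box letters TATAAA were in 7 windows (10.1%, against 8.39%) and the hypoxia response core ACGTG in 19 (27.5%, against 30.0%). No motif contains another, and a match is a description, not a bound site. Genes with and without the NRF1 motif had median levels of 175 and 158 FPKM. For the GABP motif these medians were 274 and 155 FPKM, and for the YY1 motif 148 and 174 FPKM, all with no test.

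Of the NRF1 matches, 5 lie with 15 bases on each side outside every annotated exon, and they are shown because this motif was the most frequent of the 3 in the set. Capitals mark the motif. The stretches are chr11:115420036-115420075 (minus strand) for Atp5h, a peripheral stalk subunit, chr5:115349051-115349090 (minus) for Cox6a1, chr17:56717687-56717726 (plus) for Ndufa11, chr16:37654535-37654574 (minus) for Ndufb4 and chr4:123718260-123718299 (minus) for Ndufs5. The motif begins 141, 117, 60, 191 and 98 bases before the start.
Atp5h: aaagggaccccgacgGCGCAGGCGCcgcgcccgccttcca
Cox6a1: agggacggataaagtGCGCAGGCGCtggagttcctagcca
Ndufa11: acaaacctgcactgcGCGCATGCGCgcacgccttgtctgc
Ndufb4: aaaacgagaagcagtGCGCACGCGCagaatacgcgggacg
Ndufs5: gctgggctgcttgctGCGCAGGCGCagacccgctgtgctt

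These 5 genes had mean levels of 24.4 FPKM (Ndufa11), 25.9 (Ndufs5, uncertain), 175 (Ndufb4), 253 (Atp5h) and 521 FPKM (Cox6a1). The 120 bases before the start of Cox6b2 are shown beside them, because it was the restricted isoform with the highest level; they lie at chr7:4753095-4753214 (minus strand), contain none of the NRF1, GABP or YY1 motifs, and have 6 CpG sites and 60.8% G and C.
Cox6b2: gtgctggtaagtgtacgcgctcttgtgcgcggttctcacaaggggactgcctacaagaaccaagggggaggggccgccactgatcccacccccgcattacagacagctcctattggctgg

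**Figure D5:**
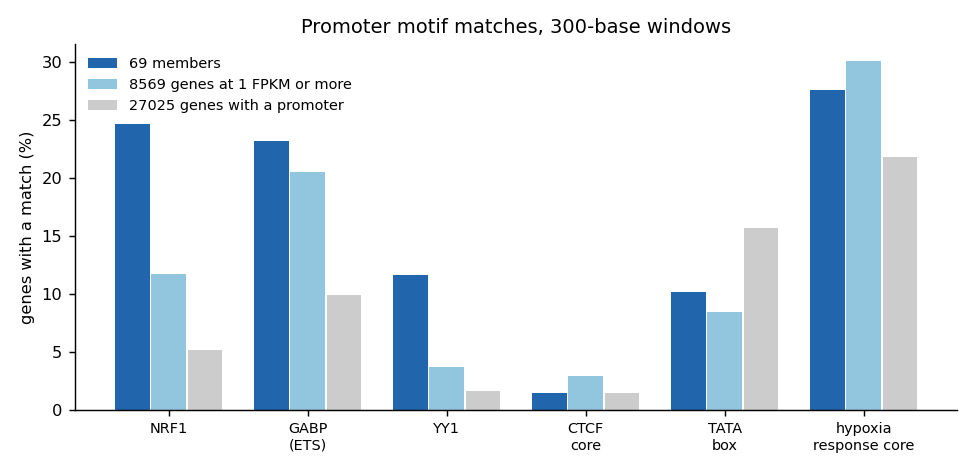
Share of genes (%, from 0) whose 300-base promoter window holds each motif, for the 69 subunit genes, the 8569 genes at 1 FPKM or more and all 27025 genes with a window. The NRF1 bars stand at 24.6%, 11.7% and 5.19%, and the Ctcf core bars at 1.45%, 2.88% and 1.43%.

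The subunit genes lie on 19 chromosomes, with Ndufa1, Ndufb11 and Cox7b on the X. Many share their start region with a gene on the other strand: 19 of 85 (22.4%) had another coding gene starting within 1000 bases in the opposite direction, against 10.3% of 10553 expressed coding genes and 6.78% of 21951 in all. Such pairs include Ndufa7 with the ribosomal protein gene Rps28, 10 bases apart, Ndufb9 with Tatdn1 (18 bases) and Sdha with Ccdc127 (29 bases).

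Lists of genes that work beside the complexes held 1 gene that was called. The lists are short against the shares called over all genes (0.108%, 0%, 1.37% and 1.52% in the 4 comparisons), so a count of 0 in a list is near the background. Of 39 assembly factors, which insert cofactors and build the complexes, 0 were called in any of the 4 comparisons of the authors' deposited table. The most abundant, 2900010M23Rik, was at 246, 239, 184 and 199 FPKM, and its p for the lines with doxycycline was 0.0886. Of 24 genes of the citric acid cycle and pyruvate dehydrogenase 0 were called; Mdh2, malate dehydrogenase, led with 346, 363, 339 and 355 FPKM. Between the lines, 6 of the 24 lay above 0 in each comparison, with medians of -0.06 and -0.09 (transgenic minus non-transgenic). Of 19 tested genes of mitochondrial biogenesis and mitochondrial DNA upkeep 0 were called, with medians of -0.06 and -0.09 between the lines. For the assembly factors the medians between the lines, without and with doxycycline, were -0.04 and -0.08, and over all genes -0.001 and -0.02. None of these list medians was tested. The 13 genes encoded in mitochondrial DNA are not analysed here.

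The gene called was Cyct, the testis form of cytochrome c, among 23 genes of electron carriers and ADP/ATP exchange. It was at 21.5 and 20.1 FPKM in the induced and uninduced transgenic line and at 2.31 and 2.25 FPKM in the other line. It was called higher in the transgenic line without and with doxycycline (log2 differences 2.70 and 2.77, q = 0.00812 in both in the authors' deposited table, p = 5e-05, the smallest that table gives). With 1 clone per line this difference cannot be told apart from other clone differences. Slc25a5, the main ADP/ATP carrier of dividing cells, was the most abundant of that list at 628, 602, 613 and 584 FPKM, and was not called.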

How the data were processed

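RNA of 8 libraries in 4 groups of 2 was sequenced as 75-base single-end reads, per the labels' protocols. TopHat2 2.0.8, Cufflinks 2.1.1 and mm10 are named per the submitters' processing notes; annotation, strand setting and normalization were not given in the sources used here. Each gene of the single deposited table, laid out as Cuffdiff writes it, has from the authors an FPKM value per group combining both libraries, a log2 fold of the FPKM values without a pseudocount, a test statistic (a score), a p-value and a q-value. The deposited q-value matched Benjamini-Hochberg adjustment over the 78127 tests of all 6 comparisons (largest difference 5.21e-07); 4 comparisons were used. Because both libraries are merged, depth and the spread between libraries are unknown, and p-values rest on the authors' model of 2 samples per group. The deposited table gave 0 columns of samples that could not be mapped to a group.

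Genes were called at a deposited q-value under 0.05. Differences were computed on the log2(FPKM + 1) scale, which understates changes of low genes, over genes at 1 FPKM or more in the mean of the 4 groups. The difference between responses used a two-sided normal test of the log2 ratios with Benjamini-Hochberg adjustment. It was tried on simulated data drawn with the same standard errors, which cannot check whether those errors hold. The calculations used Python 3.11.15 with scipy 1.17.1, pandas 2.3.3 and numpy 2.4.6. Symbols were matched to RefSeq (81 by symbol, 4 by synonym). Transcripts for shared 75-base stretches came from GENCODE. The genes and lists were chosen with earlier results of these data known. The motifs, the ratio limits of 1.2 and 1.5, the level of 50 FPKM, the subset without 3 genes, the grouping of Cox7b with Cox7b2 and the sum of 2 entries at Ndufs5 were chosen after the values were seen. Genes named are those called, the 2 highest of each complex, core subunits, isoform families, and the 3 largest and 3 smallest differences of each comparison; of the context lists, those called and the extremes or most abundant. The values of 1 core gene are not reported here.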

Additional observations from a re-analysis of the deposited data

How the results depend on the processing

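No paired analysis was possible because the deposited table holds 1 value per group and none per library; for the same reason no library was left out. The count of subunit genes called stayed at 0 in the 4 comparisons at a q of 0.01 and with p adjusted within each comparison alone, and for the difference of responses with the standard error from the p-value. The median log2 differences, under other pseudocounts, expression minimums, scalings and member sets, ranged from 0.02 to 0.04 for doxycycline in the transgenic line, from -0.01 to 0.01 in the non-transgenic line, from -0.01 to 0.03 for the lines without doxycycline and from 0.03 to 0.07 with it. The sign changed in 2 cases: in the non-transgenic line when values were centred on all genes, and for the lines without doxycycline when FPKM was rescaled to the same total in each group. Rescaling, leaving out Ndufs5 and adding it to BC002163 were chosen after seeing the data. A direction for the whole set in those 2 comparisons is therefore not given.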
